A study of Mus musculus with 12 samples.

Results

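The 10 genes described here carry the signal of thyroid stimulating hormone (TSH) from the cell surface to the nucleus. They were chosen by symbol, as Tshr, Gnas, Adcy3, Adcy6, Adcy9, Pde4d, Pde8b, Prkar1a, Prkaca and Creb1, and each was found as 1 gene among the 55536 genes of the deposited tables. Thyroid RNA was sequenced from 5 affected mice and 7 unaffected mice, with 1 library per mouse. The affected mice had thyroid dysplasia and were of the C57BL/6NTac (B6NTac) substrain, in which the study describes a LINE-1 retrotransposon in an intron of Tg, the thyroglobulin gene. Of the unaffected mice, 6 were wild type C57BL/6NCrl (B6NCrl) animals from another breeder and 1, mouse 14, was an unaffected knockout animal from the breeder of the B6NTac mice. The labels give no sex, age, Tg genotype or batch, and do not say which gene was knocked out. Substrain and phenotype were nearly the same split, so that their effects cannot be told apart.

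TSH binds its receptor on the thyroid follicular cell, and the receptor activates the stimulatory G protein, which in turn activates adenylyl cyclases that make cyclic AMP (cAMP). Cyclic AMP releases the catalytic subunits of protein kinase A (PKA) from their regulatory subunits, and PKA phosphorylates the transcription factor CREB. Phosphodiesterases end the signal by breaking cAMP down. In the thyroid this pathway drives hormone synthesis, iodide uptake and follicular cell growth.

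None of the 10 members passed the test between affected and unaffected thyroids, while 4 (Adcy3, Adcy6, Pde4d and Prkaca) had an unadjusted p under 0.05 by edgeR's quasi-likelihood test. In the same fit, over 19661 genes, 13.7% passed an adjusted p of 0.05 and 29% had an unadjusted p under 0.05. DESeq2 called 1 member, Adcy3, and limma on log2 FPKM called 0. The median log2 fold change was -0.017 over the members and 0.005 over all genes tested, and the members ranged from -0.20 to 0.98. No member had affected and unaffected mice that did not overlap, against 7.14% of all genes tested. The members were thus called no more often than genes in general.

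The libraries held between 11434901 (unaffected mouse 14) and 23319948 estimated counts. Values are given as CPM, counts scaled to a common library size, after TMM scaling, a correction for differences in library composition. The libraries differed in tissue content. Summed CPM of 8 thyroid follicular cell markers ran from 101200 to 256600 in affected mice and from 211000 to 304600 in unaffected mice. Affected mice 1 and 6 had the lowest mean level of thyroid transcription factors. The parathyroid hormone gene Pth was at 0.722 CPM in affected mouse 4 and at 1653 CPM or more in each unaffected mouse. Of 7 macrophage markers 3 rose, with summed levels from 152 to 243 CPM in affected and from 73.4 to 182 CPM in unaffected mice. Single mice of both groups carried other tissue. Summed CPM of T cell markers reached 299 in unaffected and 52.5 in affected mice. Cd8a, a T cell marker, was at 91.6 CPM in unaffected mouse 14 and at 81.0 CPM in unaffected mouse 21. In affected mice it was at no more than 10.9 CPM. An alternative left out unaffected mice 14 and 21. Affected mouse 3 had 1597 summed CPM of airway epithelium markers, of which 2 of 5 rose, and 590 of cartilage markers, against at most 62.9 and 183 in unaffected mice. Affected mouse 1 had 90.4 summed CPM of B cell markers, against at most 8.61 in unaffected mice. Skeletal muscle markers ran from 11.2 to 26730 CPM in affected and from 1.39 to 11260 CPM in unaffected mice, highest in affected mouse 6. The part of macrophages, airway, cartilage, B cells and T cells in the members' values was not tested. Because whole glands were sequenced, fewer cells of a type and less RNA per cell cannot be told apart.

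Per length, the members covered a wide range of abundance. In unaffected thyroids Gnas was the highest, at 582 ± 82.5 FPKM (fragment counts scaled by transcript length and library total, mean ± SD, n = 7), followed by Prkar1a at 66.3 ± 3.71 FPKM. Adcy6 (29.6 ± 2.82 FPKM) and Prkaca (29.1 ± 2.13 FPKM) were next and did not differ beyond their spread. Creb1 stood at 18.2 ± 2.86 FPKM and Pde4d at 13.5 ± 4.49 FPKM, with overlapping ranges. Adcy9 (12.1 ± 1.18 FPKM) and Tshr (11.7 ± 1.30 FPKM) were also within each other's spread. Adcy3 at 4.63 ± 0.623 FPKM and Pde8b at 1.65 ± 0.213 FPKM were the lowest. The spread between mice was wider in affected than in unaffected thyroids for all members but Creb1. The coefficient of variation of Adcy3 FPKM was 98.4% in affected and 13.4% in unaffected mice, and that of Tshr FPKM was 36.6% and 11.1%.

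**Figure D1:**
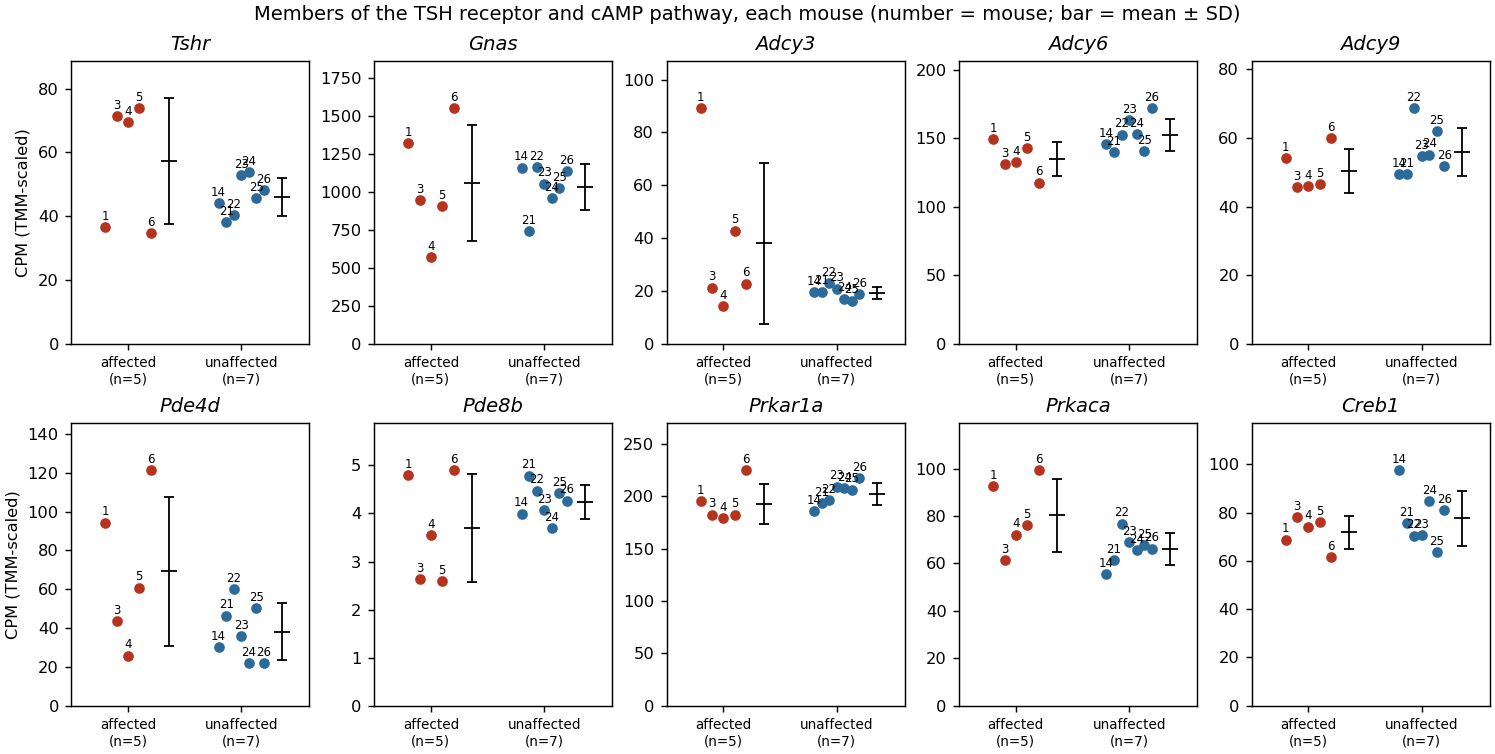
TMM-scaled CPM of each member in each mouse, with a separate linear axis from 0 for each gene. Points are mice, numbered, in affected (red, n = 5) and unaffected (blue, n = 7) groups, and black bars are mean ± SD. Affected mouse 1 stands above all others for Adcy3, and affected mice 3, 4 and 5 stand above all unaffected mice for Tshr.

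Tshr encodes the receptor and lies on chromosome 12 (91384563 to 91549808, plus strand, GRCm38, as in the deposited tables). Its level was 36.5 CPM in affected mouse 1, 71.3 in mouse 3, 69.4 in mouse 4, 73.8 in mouse 5 and 34.7 in mouse 6. Unaffected mice ran from 38.0 to 53.7 CPM with a median of 45.7. The affected mice thus fell on both sides of the unaffected range, 3 above it and 2 below it. The log2 fold change of Tshr was 0.31 ± 0.20 (SE, adjusted p = 0.324 by edgeR's quasi-likelihood test), with an interval of 2 SE from -0.08 to 0.70. The 2 affected mice below the range, 1 and 6, were those with the lowest levels of thyroid transcription factors.

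The level of Tshr was therefore also set against that of 4 transcription factors of the follicular cell, Pax8, Nkx2-1, Foxe1 and Hhex. Tshr log2 CPM minus the mean log2 CPM of the 4 factors was -0.97, -0.56, -1.28, -0.79 and -1.12 in affected mice 1, 3, 4, 5 and 6. In unaffected mice it lay between -2.03 and -1.69. Each of the 5 affected mice was above all 7 unaffected mice. The means were -0.94 ± 0.28 (SD, n = 5) and -1.81 ± 0.11 (SD, n = 7), a difference of 0.86 on the log2 scale (exact permutation test, two-sided, p = 0.00126, the smallest p this design allows). Part of this difference lies in the factors themselves. Pax8 fell by 0.81 on the log2 scale (adjusted p = 0.0158, edgeR's quasi-likelihood test), and Nkx2-1 (-0.41), Foxe1 (-0.61) and Hhex (-0.41) had negative fold changes that did not pass. The difference thus shows unequal change of Tshr and the factors, not a rise of Tshr. Against the same 4 factors the mean of each of the 10 members was higher in affected mice, by 0.38 (Pde8b) to 1.37 (Pde4d) on the log2 scale. For no member other than Tshr were all 5 affected mice above all unaffected mice. With the factors' mean as a covariate, the log2 fold change of Tshr was 0.83 (adjusted p = 0.00386, edgeR's quasi-likelihood test; 0.00386 to 0.628 over all alternatives). Without that adjustment the log2 fold change stayed positive in the other 27 alternatives and passed in none.

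**Figure D2:**
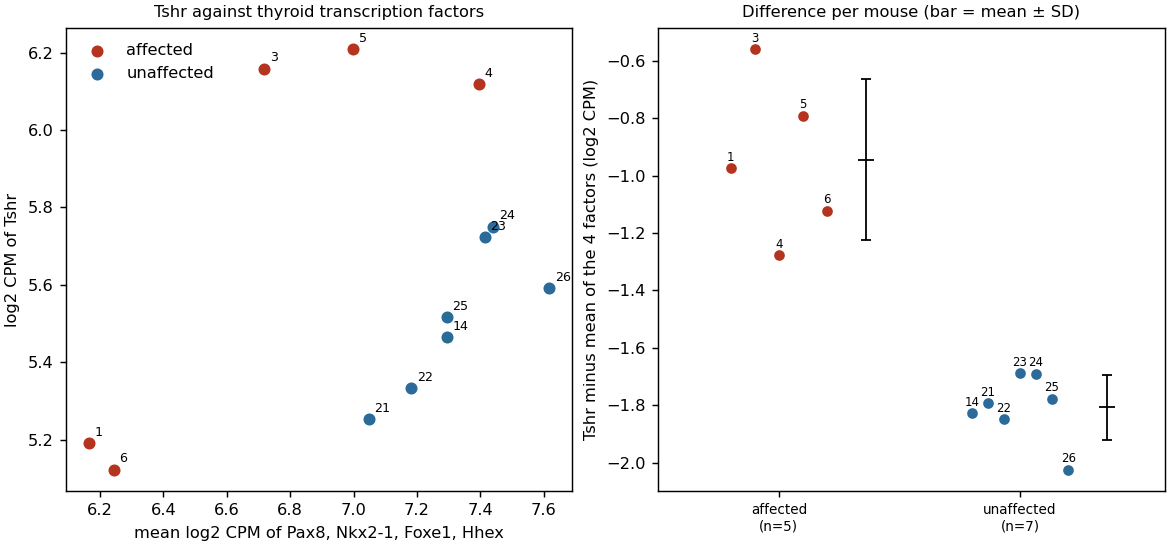
Left, Tshr log2 CPM against the mean log2 CPM of Pax8, Nkx2-1, Foxe1 and Hhex in each mouse. Right, the difference between the axes of the left plot in each mouse, with mean ± SD; the 5 affected mice lie between -1.28 and -0.56 and the 7 unaffected mice between -2.03 and -1.69.

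With group means subtracted, Tshr followed the mean log2 level of the thyroid marker list over the 12 mice (Pearson r = 0.926, permutation p = 0.0014; Spearman rho = 0.874, permutation p = 0.0033). Over the 140 relations of members to marker lists that were computed, the adjusted p values were 0.099 and 0.16. Without affected mice 1 and 6, r was 0.863. The genes whose pattern was most like that of Tshr over the 12 mice, group means subtracted, were Mcfd2 (r = 0.988), Tmprss2 (0.988), B4galt4 (0.984) and Tmbim6 (0.982), of 15521 genes compared. These 4 are named by rank alone, and the 12 mice share the differences in tissue content given above.

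The ligand side of the receptor was hardly measured in thyroid. Of 7 genes of glycoprotein hormones and related receptors, which include the TSH subunits, 6 did not pass the filter on low counts. Tshb, the beta subunit of TSH made in the pituitary, was tested and did not differ (log2 fold change 0.02, adjusted p = 0.977, edgeR's quasi-likelihood test), at 0.463 to 1.71 CPM over all mice.

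Gnas encodes the stimulatory G protein alpha subunit and lies on chromosome 2 (174284320 to 174346744, plus strand). The counts of Gnas pool 24 annotated transcripts, which were not told apart here. Its level was 1322 CPM in affected mouse 1, 946 in mouse 3, 569 in mouse 4, 903 in mouse 5 and 1550 in mouse 6. Unaffected mice ran from 740 to 1160 CPM with a median of 1054. The lowest and the highest mouse of all 12 were both affected. Between groups the log2 fold change of Gnas was 0.03 ± 0.21 (SE, adjusted p = 0.935, edgeR's quasi-likelihood test), and its sign changed with several alternatives. Gnas moved with the mean of the parathyroid list over the 12 mice, group means subtracted (Pearson r = 0.817, permutation p = 5e-05, adjusted p = 0.007 over 140 relations). The rank correlation was weaker (rho = 0.671, permutation p = 0.0016, adjusted p = 0.16). Without affected mouse 4 and unaffected mouse 21, r was 0.557, so the relation rested partly on these mice. None of the 3 parathyroid markers passed the test between groups, and their summed CPM ran from 29.4 to 4309 in affected and from 1803 to 3419 in unaffected mice. With the parathyroid list as a covariate, the log2 fold change of Gnas was 0.17 (adjusted p = 0.41, edgeR's quasi-likelihood test, against 0.164 to 0.984 over all alternatives). Exons of Gnas overlap exons of genes on the opposite strand (Nespas and Gm20721) over 22% of their length, and reads from both strands cannot be told apart where counting did not use strand.

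Among the other G protein subunits, 2 of 15 rose and none fell. Gnai1, an inhibitory alpha subunit, rose by 0.47 on the log2 scale (adjusted p = 0.0437) and Gna13, another alpha subunit, by 0.31 (adjusted p = 0.0224; both edgeR's quasi-likelihood test). The call for Gnai1 was lost in 19 of 28 alternatives and that for Gna13 in 9. Of 16 receptor kinases, arrestins and RGS proteins, 1 fell and none rose. This was Arrb1, an arrestin that ends receptor signaling (log2 fold change -0.41, adjusted p = 0.0184, edgeR's quasi-likelihood test). The median log2 fold changes were 0.029 and 0.015, against 0.005 over all genes.

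The adenylyl cyclases differed in their patterns. Adcy6 was the most abundant of the family per length, and the 3 members made up most of it. Of the summed FPKM of the 10 cyclases in unaffected mice, Adcy6 held 51.7 ± 3.92%, Adcy9 21.2 ± 2.06% and Adcy3 8.08 ± 0.844% (SD, n = 7). In affected mice the shares were 44.3 ± 8.06%, 18.5 ± 3.50% and 15.8 ± 10.3% (SD, n = 5).

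Adcy3, known for its part in olfactory signaling and in fat tissue, lies on chromosome 12 (4133103 to 4213525, plus strand). Its level was 89.2 CPM in affected mouse 1, 21.2 in mouse 3, 14.3 in mouse 4, 42.8 in mouse 5 and 22.7 in mouse 6. Unaffected mice ran from 16.3 to 22.9 CPM with a median of 19.6. Only affected mice 1 and 5 were above all unaffected mice, and mouse 4 was below them. The log2 fold change of Adcy3 was 0.98 ± 0.37 (SE, adjusted p = 0.105, edgeR's quasi-likelihood test), the largest among the members. Over the alternatives it ran from 0.09 to 1.20 with adjusted p from 0.0316 to 0.907. Without affected mouse 1 it was 0.39, and without affected mouse 4 it was 1.20 (adjusted p = 0.0316). Affected mice 1 and 5 also had the highest summed level of 5 brown adipose tissue markers, which ran from 34.8 to 992 CPM in affected and from 58.7 to 198 CPM in unaffected mice, with 1 of 5 (Elovl3) passing the test. Ucp1, the uncoupling protein of brown fat, was at 691 CPM in affected mouse 1 and at no more than 82.8 CPM in unaffected mice. Affected mouse 6 had Ucp1 at 151 CPM, also above all unaffected mice, but its Adcy3, at 22.7 CPM, was within the unaffected range. Adcy3 followed this list (Pearson r = 0.883, permutation p = 0.016; Spearman rho = 0.797, permutation p = 0.026; adjusted p = 0.2 and 0.21 over 140 relations; r = 0.824 without affected mice 1 and 5). It also followed the white adipose list (Pearson r = 0.846, permutation p = 0.012, adjusted p = 0.2, Spearman rho = 0.664, permutation p = 0.066, adjusted p = 0.36, and r = 0.685 without affected mouse 1 and unaffected mouse 25). For the smooth muscle and pericyte list Pearson r was 0.771 (permutation p = 0.004, adjusted p = 0.19) and Spearman rho 0.559 (permutation p = 0.09, adjusted p = 0.39), with r = 0.37 without affected mouse 1 and unaffected mouse 22. None of these relations passed the adjustment, and affected mouse 1 was high for each list. With the brown adipose list as a covariate the log2 fold change of Adcy3 was 0.09 (adjusted p = 0.818, edgeR's quasi-likelihood test). This covariate was chosen after seeing the data, and the cause of the Adcy3 values was not tested. Its exons overlap those of Cenpo on the opposite strand over 22.1% of their length.

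Adcy6, on chromosome 15 (98589973 to 98610076, minus strand), was at 149, 131, 133, 143 and 117 CPM in affected mice 1, 3, 4, 5 and 6. Unaffected mice ran from 140 to 172 CPM with a median of 153. All 5 affected mice were below the median of the unaffected mice, and 3 of 5 were below all of them. The log2 fold change of Adcy6 was -0.18 ± 0.07 (SE, adjusted p = 0.134, edgeR's quasi-likelihood test), negative in all 28 alternatives and past the threshold in none. Adcy9, on chromosome 16 (4287529 to 4420498, minus strand), ranged from 45.7 to 60.1 CPM in affected and from 49.4 to 68.7 CPM in unaffected mice, and its log2 fold change was -0.15 ± 0.10 (SE, adjusted p = 0.367, edgeR's quasi-likelihood test). Of the 7 other cyclases, 6 were tested and none passed.

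Pde4d, a cAMP-specific phosphodiesterase, lies on chromosome 13 (108449948 to 109953461, plus strand). Its level was 94.3 CPM in affected mouse 1, 43.7 in mouse 3, 25.8 in mouse 4, 60.9 in mouse 5 and 121 in mouse 6. Unaffected mice ran from 21.8 to 60.2 CPM with a median of 36. Affected mice 1, 5 and 6 were above all unaffected mice, mouse 5 by a narrow margin, and the others lay within the unaffected range. The log2 fold change of Pde4d was 0.86 ± 0.38 (SE, adjusted p = 0.153, edgeR's quasi-likelihood test). The same brown adipose markers moved with it (Pearson r = 0.764, permutation p = 0.014; Spearman rho = 0.762, permutation p = 0.015; adjusted p = 0.2 and 0.21; r = 0.795 without affected mice 1 and 5). It went against the thyroid list (Pearson r = -0.819, permutation p = 0.0062; Spearman rho = -0.748, permutation p = 0.018; adjusted p = 0.2 and 0.21; r = -0.746 without affected mice 1 and 6). For the skeletal muscle list Pearson r was 0.605 (permutation p = 0.045, adjusted p = 0.45) and Spearman rho 0.706 (permutation p = 0.015, adjusted p = 0.21). Affected mouse 6, the highest for Pde4d, was also the highest for skeletal muscle markers. None of these relations passed the adjustment. With the brown adipose list as a covariate the log2 fold change of Pde4d was 0.18, and with the thyroid factors it was -0.31. 

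**Figure D3:**
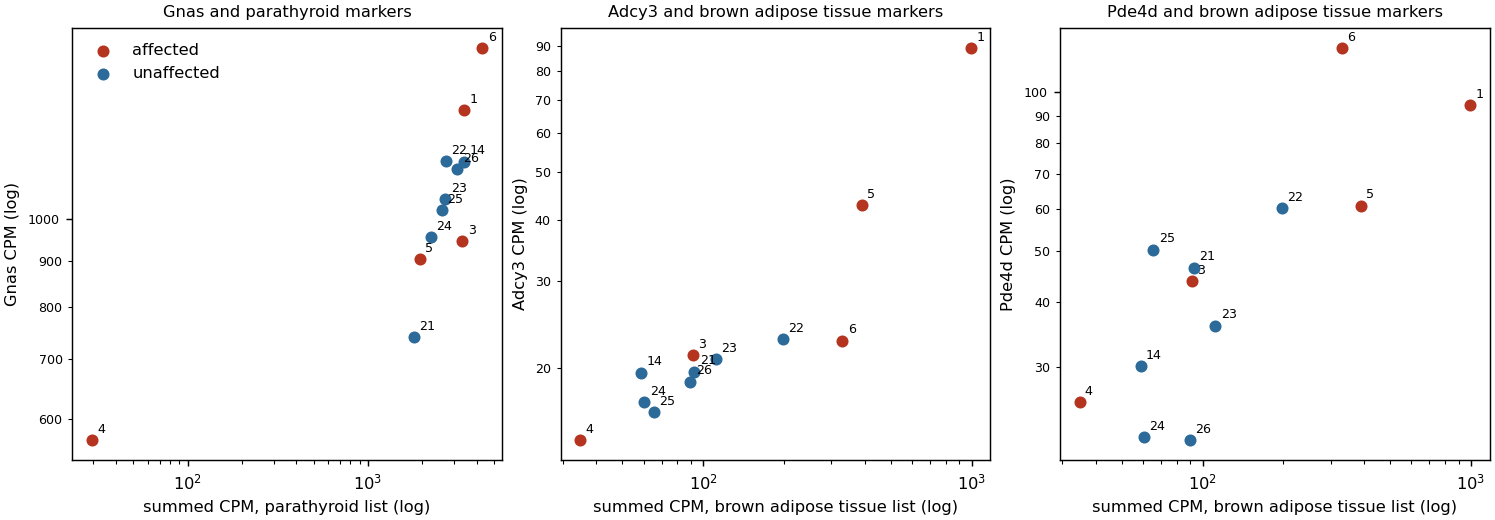
CPM of Gnas, Adcy3 and Pde4d in each mouse against the summed CPM of a tissue marker list, on log axes (red, affected, n = 5; blue, unaffected, n = 7; numbers are mice). Affected mouse 4 has 29.4 summed CPM of parathyroid markers and the lowest Gnas, and affected mouse 1 has 992 summed CPM of brown adipose markers and the highest Adcy3.

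Pde8b, a phosphodiesterase with high affinity for cAMP, lies on chromosome 13 (95024454 to 95250336, minus strand). It was the lowest member, at 4.80, 2.64, 3.56, 2.59 and 4.90 CPM in affected mice 1, 3, 4, 5 and 6, and at 3.70 to 4.79 CPM with a median of 4.27 in unaffected mice. Affected mice lay on both sides of the unaffected range, 2 above and 3 below, and mice 3, 4 and 5, the ones below it, were those above the range for Tshr. With group means subtracted, Pde8b followed the fibroblast list (Pearson r = 0.86, permutation p = 0.013, adjusted p = 0.2). Tshr went against that list (r = -0.892, permutation p = 0.0074, adjusted p = 0.2). Between Pde8b and the thyroid list r was -0.737 (permutation p = 0.087, adjusted p = 0.47). None passed the adjustment, and the part of tissue content in this split was not tested. The estimated counts were between 48.3 and 110 per mouse, which limits the precision of Pde8b more than that of the others. In the test the log2 fold change of Pde8b was -0.20 ± 0.17 (SE, adjusted p = 0.48, edgeR's quasi-likelihood test). The genes most like it over the 12 mice, group means subtracted, were Tmem170b (r = 0.926), Hdac9 (0.917), Phka2 (0.904), Qk (0.891) and Ppm1k (0.888).

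Among 14 other cAMP phosphodiesterases 1 fell and none rose. Pde1a, which is activated by calcium and calmodulin, was at 12.2 to 20.6 CPM in affected and at 25.5 to 34.2 CPM in unaffected mice, with no overlap. Its log2 fold change was -1.0 ± 0.13 (SE, adjusted p = 0.000486, edgeR's quasi-likelihood test), lower in 5 of 5 affected mice and past the threshold in all 28 alternatives. The median log2 fold change of the 14 was 0.059.

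Prkar1a encodes a regulatory subunit of PKA and lies on chromosome 11 (109649405 to 109669656, plus strand). Its level was 195, 182, 179, 182 and 225 CPM in affected mice 1, 3, 4, 5 and 6, against 186 to 217 CPM with a median of 206 in unaffected mice. Mouse 6 was above all unaffected mice and mice 3, 4 and 5 were below all of them. Between groups the log2 fold change of Prkar1a was -0.07 ± 0.07 (SE, adjusted p = 0.549, edgeR's quasi-likelihood test), with an interval of 2 SE from -0.21 to 0.07. Prkaca, the catalytic subunit alpha, lies on chromosome 8 (83972993 to 83996443, plus strand). It was at 92.7, 61.3, 72.1, 76.1 and 99.3 CPM in affected mice 1, 3, 4, 5 and 6, and at 55.6 to 76.8 CPM with a median of 66.3 in unaffected mice. Affected mice 1 and 6, which also had high Pde4d, were above all unaffected mice. In the test the log2 fold change of Prkaca was 0.28 ± 0.12 (SE, adjusted p = 0.127, edgeR's quasi-likelihood test). It passed without affected mouse 3 (adjusted p = 0.0485; 0.0485 to 0.759 over all alternatives). None of the 7 other PKA subunits and inhibitors passed. Of 11 A kinase anchor proteins, which place PKA in the cell, 1 fell: Akap5 (log2 fold change -0.53, adjusted p = 0.0449, edgeR's quasi-likelihood test), a call lost in 17 of 28 alternatives.

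Cyclic AMP also acts through EPAC, an exchange factor for the small GTPase Rap1. Of 8 genes of this branch 2 fell and 1 rose, a share of 37.5% against 13.7% of all genes. Rap1gap, which switches Rap1 off, fell by 0.86 on the log2 scale (adjusted p = 0.0118). Rapgef3, which encodes one of the EPAC proteins, fell by 0.37 (adjusted p = 0.033), with no overlap between groups, while Rapgef4, which encodes the other, did not pass (log2 fold change -0.32, adjusted p = 0.107). Rap1a rose by 0.32 (adjusted p = 0.00727; all by edgeR's quasi-likelihood test), also with no overlap. The call was kept for Rap1a and Rap1gap in 27 of 28 alternatives each and for Rapgef3 in 14.

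Creb1 lies on chromosome 1 (64532645 to 64604548, plus strand) and encodes CREB. Its level was 68.9, 78.2, 74.2, 76.2 and 61.5 CPM in affected mice 1, 3, 4, 5 and 6, and 63.5 to 97.6 CPM with a median of 75.5 in unaffected mice. The highest value was that of unaffected mouse 14, the library with the fewest counts. Between groups the log2 fold change of Creb1 was -0.11 ± 0.10 (SE, adjusted p = 0.506, edgeR's quasi-likelihood test). Of 10 other CREB family members, coactivators and kinases of the coactivators, 1 rose and 1 fell. Atf1, a close relative of CREB, was at 36.9 to 43.7 CPM in affected and at 27.6 to 33.5 CPM in unaffected mice (log2 fold change 0.42 ± 0.07, SE, adjusted p = 0.00169, edgeR's quasi-likelihood test). Crtc1, a CREB coactivator, was at 21.0 to 26.6 CPM in affected and at 28.0 to 30.6 CPM in unaffected mice (log2 fold change -0.25 ± 0.07, SE, adjusted p = 0.0253, edgeR's quasi-likelihood test). Neither gene overlapped between groups, and the call was lost in 1 of 28 alternatives for Atf1 and in 10 for Crtc1.

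**Figure D4:**
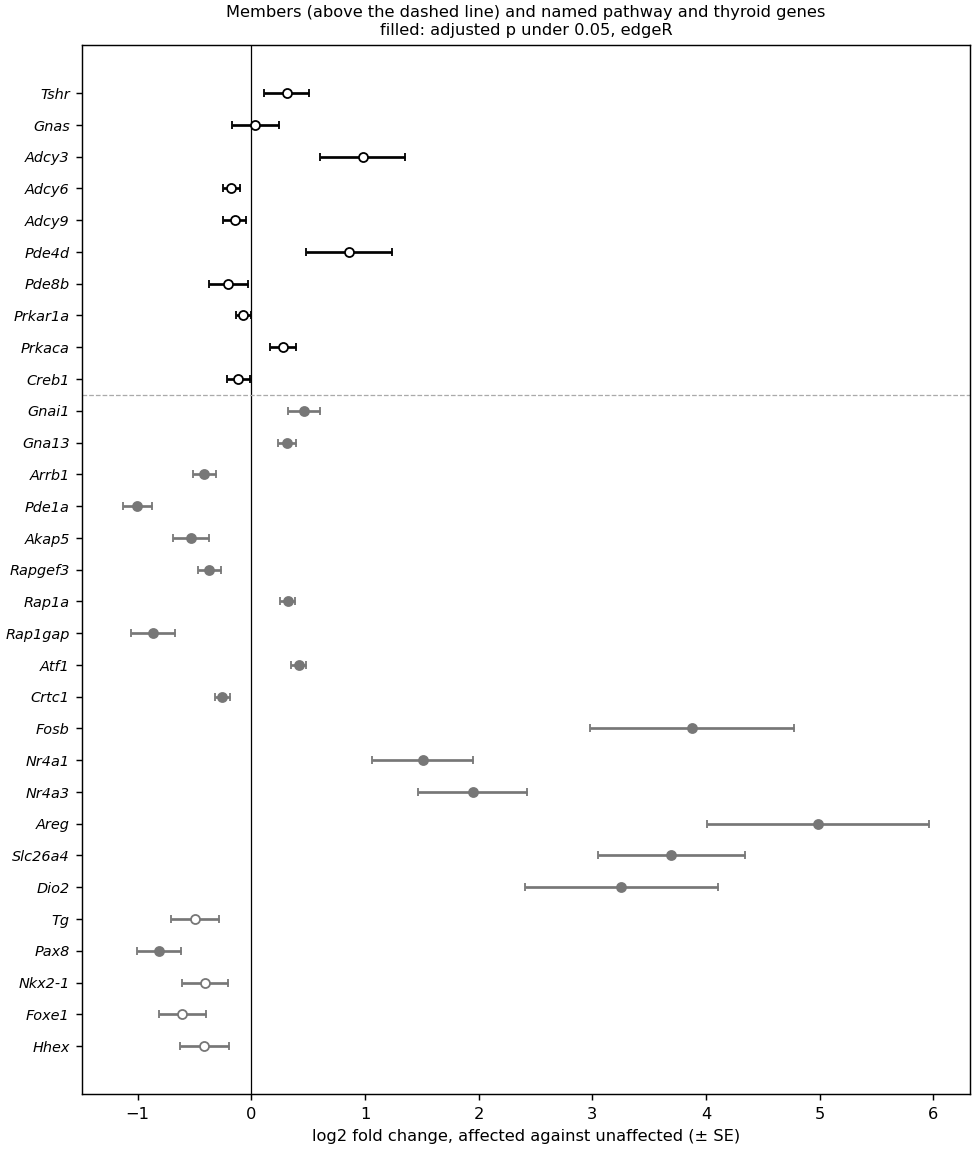
Log2 fold change, affected against unaffected, with SE, of the 10 members (black) and of other named pathway and thyroid genes (grey); filled points have an adjusted p under 0.05. All 10 members are open, between -0.20 and 0.98, and Pde1a at -1.0 is the lowest of the genes shown.

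Genes known to be induced early after cAMP or growth signals were higher more often. Of 13 such genes 7 rose and none fell, with a median log2 fold change of 0.99 against 0.005 over all genes and against 13.7% of genes called in all. The list was chosen with earlier results of these data known, so this contrast is a description and not independent evidence. Areg, a ligand of the EGF receptor, was at 2.05, 18.9, 2.27, 17.3 and 0.936 CPM in affected mice 1, 3, 4, 5 and 6, and at 0 to 1.03 CPM in unaffected mice (log2 fold change 4.98 ± 0.98, SE, adjusted p = 0.00696, edgeR's quasi-likelihood test). Fosb, an AP-1 factor, was at 8.21, 19.9, 186, 21.1 and 18.7 CPM in the same affected mice and at 0.74 to 10.4 CPM in unaffected mice (log2 fold change 3.87 ± 0.90, SE, adjusted p = 0.0168). Without affected mouse 4 the log2 fold change of Fosb was 2.31 (adjusted p = 0.0284; 9.49e-05 to 0.0626 over all alternatives). The orphan nuclear receptors Nr4a3 (1.95, adjusted p = 0.02) and Nr4a1 (1.51, adjusted p = 0.0442) also rose, by edgeR's quasi-likelihood test. The call for Nr4a1 was lost in 23 of 28 alternatives. The other genes that rose were Egr1, Nr4a2 and Jun. Affected mouse 4, the mouse with almost no Pth, was the highest of all 12 for 7 of the 13 genes (Dusp1, Egr1, Fos, Fosb, Ier2, Jun and Junb). Affected mouse 1 was highest for 3 (Nr4a1, Nr4a3 and Ppargc1a), mouse 3 for Areg, mouse 5 for Nr4a2 and unaffected mouse 25 for Per1. Without affected mouse 4, 5 of the 13 passed. The log2 fold change of Areg was then 5.23, the log2 fold change of Nr4a3 2.19 and the log2 fold change of Nr4a1 1.45, of which the last no longer passed (adjusted p = 0.067, edgeR's quasi-likelihood test, against 0.00362 to 0.232 over all alternatives). These genes also respond to signals other than cAMP. Without unaffected mice 14 and 21, 3 of the 13 passed.

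**Figure D5:**
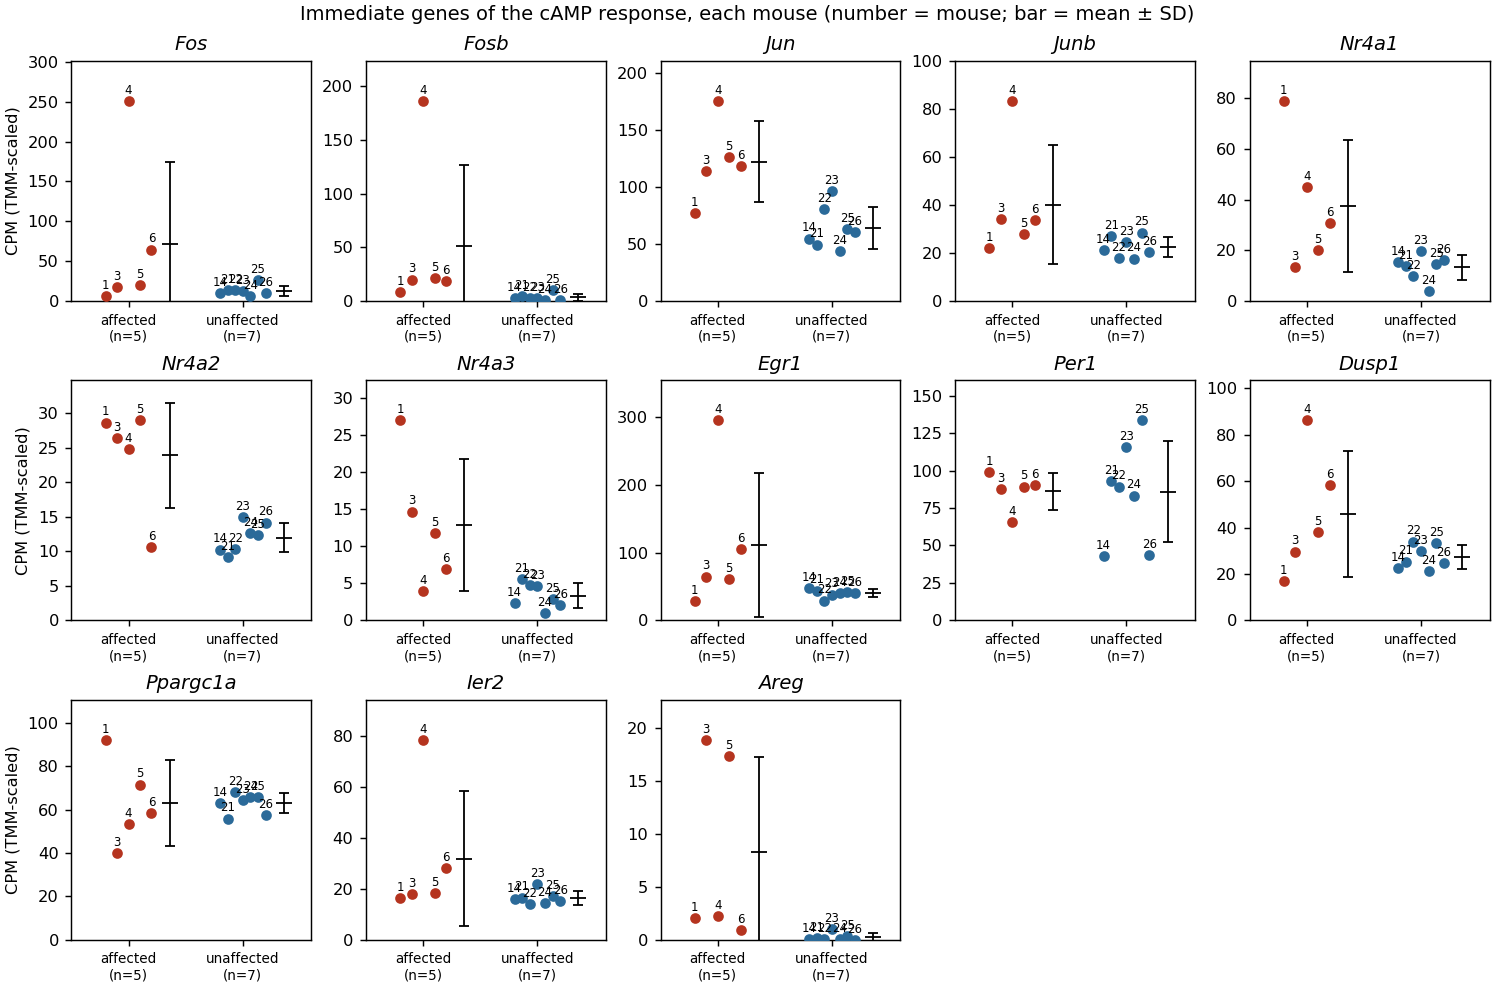
TMM-scaled CPM of 13 early response genes in each mouse, with a separate linear axis from 0 for each gene (red, affected, n = 5; blue, unaffected, n = 7; bars, mean ± SD, cut at 0). Affected mouse 4 is highest for 7 of the 13 genes and affected mouse 1 for 3.

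CREB binds the cAMP response element, whose full form reads TGACGTCA. The 250 bases before each annotated start were searched in RefSeq promoters (GRCm38.p6) for this form and for its short form, TGACG on either strand (CGTCA on the other), which the full form contains. Promoters were matched for 8 of the 10 members. The full form was found in 1 of these, Prkar1a, against 1.77% of 27025 genes, and the short form in 4 (Gnas, Adcy9, Prkar1a and Prkaca), against 19.8%. The members have more annotated starts per gene than genes in general, which raises a share counted per gene. Counted per window, the full form was in 1 of the members' 22 windows, against 1.55% of 32851, and the short form in 8 of 22, against 17.8%, and windows of 1 gene can overlap. Among the early response genes 11 of 13 were matched, of which 2 (Dusp1 and Areg) held the full form and 10 the short form. The stretches around the full form are shown for the 1 member that holds it and for Areg, the gene with the largest fold change in the pathway lists, with the element in capitals. The first is chr11:109650874-109650933, plus strand, with the element ending 41 bases before 1 of the annotated starts of Prkar1a. Of the 6 windows of Prkar1a only 1 held the full form, and this stretch lies inside the gene, which begins at 109649405. The second is chr5:91139512-91139571, plus strand, with the element ending 53 bases before the start.
Prkar1a: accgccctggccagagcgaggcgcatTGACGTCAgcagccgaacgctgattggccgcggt
Areg: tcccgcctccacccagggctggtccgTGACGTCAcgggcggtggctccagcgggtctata
Prkar1a did not pass the test and Areg rose, as given above. A match of letters is a description of these windows and not a measurement of binding.

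Among 12 thyroid genes known to respond to TSH 2 rose and none fell, with a median log2 fold change of 0.093. Slc26a4, which encodes the anion transporter pendrin, was at 0.606 to 3.33 CPM in affected and at 0 to 0.293 CPM in unaffected mice (log2 fold change 3.69 ± 0.65, SE, adjusted p = 0.00301, edgeR's quasi-likelihood test), with no overlap. Dio2, the deiodinase that makes active thyroid hormone, was at 109, 25.6, 1.80, 54.9 and 4.29 CPM in affected mice 1, 3, 4, 5 and 6, and at 1.48 to 9.38 CPM in unaffected mice (log2 fold change 3.25 ± 0.85, SE, adjusted p = 0.0282, edgeR's quasi-likelihood test). Dio2 is also a gene of brown fat, and its 3 highest mice include affected mice 1 and 5, the highest for Ucp1. Affected mouse 3, the other of these, had Ucp1 at 51.5 CPM, within the unaffected range of 10.3 to 82.8 CPM. Affected mouse 6 had Ucp1 at 151 CPM, above all unaffected mice, but its Dio2 was within the unaffected range. The cause of the rise of Dio2 was not tested. With the brown adipose list as a covariate the log2 fold change of Dio2 was 1.50 (adjusted p = 0.244; 0.000865 to 0.318 over all alternatives). Tg did not pass (log2 fold change -0.49, adjusted p = 0.14, edgeR's quasi-likelihood test). Over all pathway lists, 120 genes were outside the members and 113 were tested, of which 13 rose, 6 fell and 94 did not pass. The share that passed, 16.8%, was near the 13.7% of all genes, as were those of the TSH-responsive genes (16.7%) and the G protein subunits (13.3%). This pooled share includes the early response genes, of which 53.8% passed. The EPAC and Rap1 branch was at 37.5%. The other lists ran from 0% (among them the other cyclases and the other PKA subunits) to 20% (CREB family and coactivators). Each list holds few genes, and the lists were chosen with earlier results of these data known.

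The ratio of counts to FPKM gives the mean transcript length that the quantification assigned to a gene in a mouse. A shift in it marks a change in the mix of isoforms as assigned there. Isoforms were not measured directly. Of 8946 genes tested for this length with limma, 0.425% had an adjusted p under 0.05. No member passed, and 1 of the 9 tested had an unadjusted p under 0.05. This was Prkar1a, at 3130 ± 18.2 bases (SD, n = 5) in affected and 3064 ± 31.3 bases (SD, n = 7) in unaffected mice, with no overlap between groups (2.18% longer, adjusted p = 0.183 by limma). The share of all genes without overlap in this length was not computed, so how rare this is cannot be said. Adcy3 ranged from 3249 to 4359 bases in affected and from 3899 to 4309 bases in unaffected mice (adjusted p = 0.461, limma). Pde8b was not tested, because it had under 100 counts in some mice.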

How the data were processed

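Thyroid RNA from 12 mice was sequenced by the authors from ribosome-depleted total RNA libraries (KAPA RNA HyperPrep with RiboErase) on an Illumina NextSeq. The authors aligned reads with the OmicSoft aligner OSA4 to the mouse reference with Ensembl annotation in Array Studio. They deposited 1 table of unscaled estimated counts for each gene and 1 table of FPKM, scaled by length and library total. Whether counting used strand is not given in the sources used here. The deposited tables mark 7 of the 10 members as confounded, a mark whose meaning they do not give. Every column of values matched 1 mouse.

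Estimated counts were rounded and tested with edgeR 4.0.16 (quasi-likelihood test, TMM scaling, filterByExpr with a minimum count of 10, R 4.3.3), with Benjamini-Hochberg adjustment over 19661 genes and a threshold of 0.05. Standard errors are the fold change over the root of F. Each mouse is 1 replicate. Log2 CPM used a prior count of 2. The relative level of Tshr was tested by exact permutation of mice. Relations of members to marker lists used 1e+05 permutations within groups. Implied length was the count over FPKM and library total, tested with limma 3.58.1 on multi-transcript genes for which each mouse had 100 counts or more. For genes with 1 transcript it equalled the annotated length within 0.1% in every mouse in 100% of 3690 genes. DESeq2 1.42.0, other scalings and filters, limma on FPKM, covariates, B6NCrl controls alone and leaving out each mouse were alternatives. Scripts were tested on simulated data. Exon overlaps were taken from GENCODE M21 and promoter sequences from RefSeq (GRCm38.p6).

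Named genes were the 10 members, up to 4 genes with the largest fold change among those that passed in each pathway list, Pax8, Nkx2-1, Foxe1, Hhex and Tg, and the 5 genes most correlated with Tshr and with Pde8b. Others were named after their values were seen. A gene picked by this rule is not reported here. The members and lists were chosen with earlier results of these data known.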

Additional observations from a re-analysis of the deposited data

Results flagged for a closer look

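In 4 cases of 84 groups of mice examined, 1 mouse stood apart from the rest of its group, as Dixon's ratio of gap to range showed; chance alone flags about 1 in 20 groups. Gnas was at 740 CPM in unaffected mouse 21, while the other unaffected mice ran from 956 to 1160 CPM, and without that mouse its log2 fold change was -0.03. Nr4a1 was at 3.80 CPM in unaffected mouse 24, against 9.73 to 19.5 CPM in the others of its group. The implied transcript length of Adcy3 was 3899.4 bases in unaffected mouse 21, against 4139.5 to 4309 bases. The implied transcript length of Pde4d was 2408.9 bases in affected mouse 4, against 2900.8 to 3113.8 bases.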

How the results depend on the processing

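No paired analysis was possible because affected and unaffected mice share no replicate numbers in the labels. Depth limited Pde8b most, and 1 of 7 unaffected mice came from the breeder of the affected mice, which leaves substrain and phenotype nearly confounded in all alternatives. Some alternatives (tissue lists as covariates, and mice 14 and 21 left out) were chosen after seeing the data. Over all results and alternatives, 983 values stayed the same, 119 lost their call, 16 gained one, 35 counts moved and 20 values changed sign. A fold change or difference stayed the same if it kept its direction and side of the threshold. A count of genes stayed the same if it was near that of the main test. Unless said otherwise, the cause was not tested.

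Over all genes, 2699 passed in the main test, 1339 with limma on unfiltered log2(FPKM + 1), and 1774 to 3390 when 1 mouse was left out, lowest without affected mouse 5. No member passed in the main test, and 1 passed with DESeq2 and with the parathyroid list as a covariate (Adcy3), with library totals that left out Tg (Adcy9) and with the thyroid factors as a covariate (Tshr). Leaving out 1 mouse gave 0 to 1, Prkaca without affected mouse 3 and Adcy3 without affected mouse 4. In the pathway lists 19 genes passed, against 29 with DESeq2, 12 without a filter, 9 with limma without a filter, 11 without unaffected mice 14 and 21, and 12 to 21 when 1 mouse was left out (12 without unaffected mouse 24). In the cell type lists 10 passed, against 17 with DESeq2, 6 with library totals that left out Tg, without a filter and with B6NCrl controls alone, 2 with limma without a filter and with the thyroid factors as a covariate, 5 with the brown adipose and 20 with the parathyroid list as a covariate. Leaving out 1 mouse gave 6 to 21, with 6 without affected mouse 3 or 5 or unaffected mouse 14, 24 or 26, and 21 without affected mouse 4. Genes with a different implied length numbered 38, and 14 to 41 when 1 mouse was left out. The early response genes that rose numbered 7, and 3 to 10 over all alternatives. The relative level of Tshr kept its call in 16 of 16 alternatives, with differences from 0.77 to 1.12. Most of these only left out mice, which cannot undo a complete separation of the groups, so that their calls were fixed beforehand. Only the use of Pax8 alone and of log2(FPKM + 1) could have lost the call.

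The sign of the log2 fold change of Gnas, 0.03, changed with library totals without Tg (-0.13), upper-quartile factors (-0.018), limma on log2(FPKM + 1) with and without a filter (-0.0374) and on log2(FPKM + 0.1) (-0.0376), the thyroid factors (-0.54) and brown adipose list (-0.30) as covariates, and without unaffected mice 14 and 21 (-0.010). When 1 mouse was left out it ran from -0.14 (without affected mouse 6) to 0.21. With the thyroid factors as a covariate the log2 fold changes of Pde4d (-0.31), Creb1 (0.0034), Nkx2-1 (0.15), Hhex (0.17) and Tg (0.044) also changed sign. Nkx2-1 and Hhex are part of that covariate, so their change of sign follows from its construction. The log2 ratio of implied length ran from -0.0134 to 0.0047 for Gnas and from -0.0024 to 0.0022 for Adcy9 when 1 mouse was left out.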
